A study of Mus musculus with 14 samples.

Results

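Zscan10 is a mouse gene for a zinc finger transcription factor, and its level was followed across all 14 arrays of a study of reprogrammed fibroblasts. Members were chosen as every probe annotated to Zscan10 on the MouseRef-8 v2.0 expression beadchip, an Illumina array that reads each transcript with beads carrying 1 kind of probe. This gave 1 probe (ILMN_2858050) of 25697 on the array, and so 1 gene of 16593 named genes. RefSeq lists 5 curated transcripts of Zscan10, and all its array values below come from this 1 probe.

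Total RNA was measured once per array in 6 groups, all from cultured mouse cells. Y-SC (3 arrays) were skin fibroblasts of B6CBAF1 embryos at E17.5 (embryonic day), and A-SC (3 arrays) were tail tip skin fibroblasts of B6CBAF1 mice aged 1.5 years. Y-iPSC (2 arrays) and A-iPSC (2 arrays) were induced pluripotent stem cells, made from the young and the aged fibroblasts with retroviruses carrying mouse Oct4, Sox2, Klf4 and Myc. A-iPSC-ZSCAN10 (2 arrays) came from aged fibroblasts by the same route plus a doxycycline-inducible ZSCAN10, with induction in medium holding 2 µg/ml doxycycline. ESC (2 arrays) were mouse embryonic stem cells, grown like the iPSC with serum and leukemia inhibitory factor (LIF), and their strain was not given in the sources used here. Donor age came together with the stage and the body site of the skin, and the ZSCAN10 transgene came together with doxycycline, so these cannot be told apart. The labels number the arrays but do not say that they were separate animals, clones or cultures, so a p-value here covers the spread between arrays, which may be technical. Whether the probe also reads the transcript of the introduced ZSCAN10 was not stated.

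ZSCAN10, also called ZFP206, carries a SCAN domain, through which such factors pair with each other, and zinc fingers of the C2H2 type that bind DNA. It is known as a factor of mouse embryonic stem cells, where it works with Oct4 and Sox2 and falls as the cells differentiate. Fibroblasts are not known for its expression, so its level after reprogramming reads the activity of the gene or, in the group given ZSCAN10, possibly the introduced copy as well.

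The window around the start of Zscan10 is shown because the transcript was undetected in fibroblasts and bright in ESC. It is the RefSeq window of GRCm38.p6 at chr17:23600576-23600875 on the plus strand, with 250 bases before the annotated start and 50 after it. Capitals mark the matches, on either strand, to 2 of the motifs searched.
Zscan10 promoter window: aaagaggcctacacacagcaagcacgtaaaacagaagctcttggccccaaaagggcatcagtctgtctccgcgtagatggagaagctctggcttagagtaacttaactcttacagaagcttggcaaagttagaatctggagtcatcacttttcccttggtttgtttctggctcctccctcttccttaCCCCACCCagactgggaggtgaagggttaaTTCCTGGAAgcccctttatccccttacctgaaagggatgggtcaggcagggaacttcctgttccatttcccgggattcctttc
The first stretch, starting at base 188 of the window, matches the box of Krüppel-like factors written CCNCNCCC, which 49.5% of 32851 RefSeq windows of this length also held. The second, starting at base 218, matches the core of STAT factors written TTCNNNGAA, which 8.3% of windows held. STAT3 is the factor through which LIF acts in mouse embryonic stem cells. The octamer ATGCAAAT, the SOX core ACAAAG and the ESRRB site AAGGTCA had no match in this window, against 1.74%, 18.7% and 4.72% of all windows. The 2 matches did not overlap, and all 5 motifs were searched on both strands. A match is a description of letters and says nothing of a bound factor.

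A probe counted as detected on an array where its detection p-value, the deposited measure of how a signal compares with negative control beads, was under 0.05. The array medians of raw signal lay between 110.7 and 147.6, and 47.6% to 52.3% of probes were detected per array. Differences are on the log2 scale after background correction, quantile normalization and an offset of 16, so a probe at background sits between about 4 and 5. The defining markers of embryonic stem cells, a list of 8 genes, were all detected in both ESC arrays, with a summed background-corrected signal of 34100 to 35700. Their sums reached 9200 to 12000 in Y-iPSC, 7150 to 7160 in A-iPSC and 4900 to 9140 in A-iPSC-ZSCAN10, and at most 128 in fibroblasts. In iPSC the sums came largely from Pou5f1 (Oct4) and Sox2, which are also introduced factors. Their mean log2 levels were 12.79 and 11.22 in Y-iPSC, 12.25 and 10.97 in A-iPSC, and 11.73 and 9.97 in A-iPSC-ZSCAN10. Dppa5a stood at 8.75, 7.77 and 10.76 in the same order, and the other markers had means of 6.47 or less in these groups. Nanog, Esrrb, Tdgf1 and Utf1 were detected on neither A-iPSC array, and the ZSCAN10 group lacked Tdgf1. The label iPSC is used as the study gives it, and per array 4 to 8 of the 8 markers were detected in Y-iPSC, 4 in A-iPSC and 5 to 6 in A-iPSC-ZSCAN10.

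Zscan10 was not detected on any of the 6 fibroblast arrays. In Y-SC its raw signals were 120.3, 132.9 and 142.8, with detection p-values of 0.307, 0.174 and 0.119. In A-SC they were 98.8, 122.3 and 122.7, with detection p-values of 0.307, 0.232 and 0.575. The fibroblast arrays overlapped and none met the detection threshold. Their normalized log2 signals were 4.70 ± 0.12 (SD, n = 3) in Y-SC and 4.55 ± 0.09 (SD, n = 3) in A-SC.

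The Y-iPSC arrays had raw signals of 300.3 (array 12) and 189.6 (array 4), both with a detection p listed at 0. The A-iPSC arrays had 130.8 (array 16, detection p 0.0338) and 106.8 (array 19, detection p 0.492). The A-iPSC-ZSCAN10 arrays had 406.6 (array 3) and 604.7 (array 7), both with a detection p listed at 0. Detection thus held on both arrays of Y-iPSC and of the ZSCAN10 group, but on 1 of 2 for A-iPSC. The ESC arrays were the brightest, at 796.1 (array D) and 1311 (array H), with a detection p listed at 0.

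On the normalized scale the groups ran in the order ESC, A-iPSC-ZSCAN10, Y-iPSC, A-iPSC, Y-SC and A-SC. The log2 levels were 9.72 ± 0.28 (SD, n = 2) in ESC, 8.33 ± 0.52 (SD, n = 2) in A-iPSC-ZSCAN10 and 7.00 ± 0.80 (SD, n = 2) in Y-iPSC. A-iPSC stood at 4.83 ± 0.49 (SD, n = 2). The upper 3 groups did not overlap each other or any lower group. A-iPSC array 19, at 4.48, lay among the fibroblast arrays, which spanned 4.46 to 4.83, and A-iPSC array 16, at 5.17, lay above all of them. Neighbouring groups at the lower end therefore overlapped, and between A-iPSC-ZSCAN10 and Y-iPSC the difference missed the threshold of the test given further on.

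As a share of the mean background-corrected ESC signal, Zscan10 reached 14.6% ± 8.69 (SD, n = 2) in Y-iPSC and 1.58% ± 1.16 (SD, n = 2) in A-iPSC. With the transgene it reached 37.9% ± 14.1 (SD, n = 2). Single arrays read 20.7% and 8.42% in Y-iPSC, 2.4% and 0.755% in A-iPSC, and 27.9% and 47.9% with the transgene. The fibroblast groups, measured the same way at background, read 1.2% ± 0.265 (SD, n = 3) in Y-SC and 0.894% ± 0.172 (SD, n = 3) in A-SC. Thus no group of reprogrammed cells reached the lower of the ESC arrays, which stood at 86.1%. In bulk RNA, fewer cells with the transcript and less transcript per cell cannot be told apart.

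**Figure D1:**
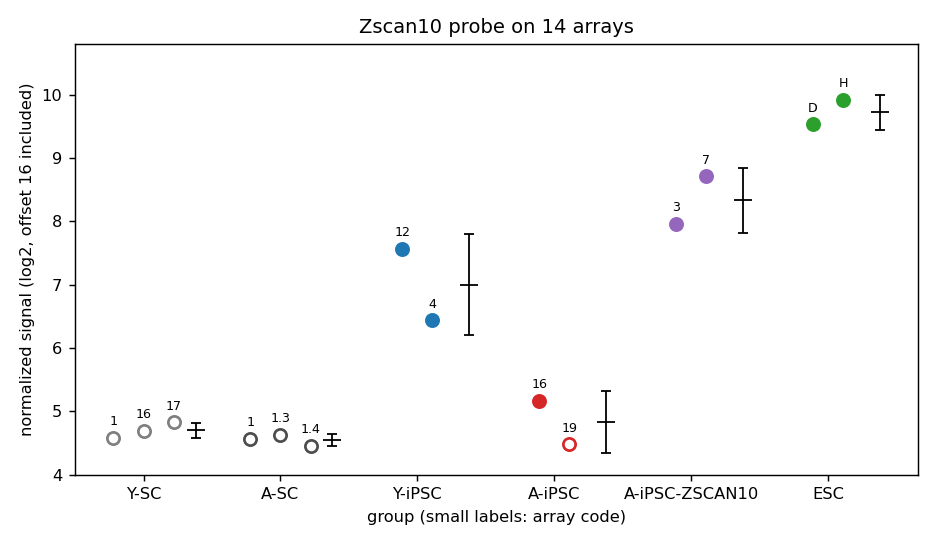
Normalized log2 signal (y axis) of the Zscan10 probe on each of 14 arrays, by group (x axis), with the array code above each point. Filled points were detected and open points were not, and the black mark beside each group is its mean ± SD (n = 2 or 3). All 6 fibroblast arrays lie between 4.46 and 4.83, and the ESC arrays at 9.53 and 9.92.

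As a description, the 8 arrays of iPSC and ESC averaged 7.47 ± 1.97 (SD, n = 8) and the 6 fibroblast arrays 4.63 ± 0.13 (SD, n = 6), a difference of 2.85 on the log2 scale (exact permutation test, two-sided, p = 0.00599 over 3003 assignments). That pool holds the ESC and the transgene arrays, so it is no test of reprogramming. The question of what reprogramming did to Zscan10 starts with the young cells. In Y-iPSC the signal rose against Y-SC by 2.30 ± 0.35 (SE) on the log2 scale, adjusted p = 0.000676 by limma with Benjamini-Hochberg adjustment over 14742 tested probes. Since Y-SC was below detection, this is at least 3.8-fold higher, counted against the dimmest detected probes of the Y-SC arrays. Of all tested probes, 23.4% passed in that comparison.

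Reprogramming of the aged fibroblasts without the transgene gave no change that passed the test. A-iPSC minus A-SC was 0.28 ± 0.35 (SE) on the log2 scale, with a 95% interval from -0.48 to 1.03 and limma adjusted p = 0.584, where 33% of tested probes passed. Without A-iPSC array 16 the difference was -0.07. With the transgene, A-iPSC-ZSCAN10 stood above A-SC by 3.78 ± 0.35 (SE), limma adjusted p = 3.26e-05, or at least 9.43-fold, where 21.1% of probes passed. The fibroblast groups themselves, both below detection, allow no fold, and their difference of -0.15 ± 0.31 (SE) had limma adjusted p = 0.927, where 0.414% of probes passed.

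The change on reprogramming itself was compared between the donors. The change in aged cells minus the change in young cells was -2.03 ± 0.49 (SE) on the log2 scale, with a 95% interval from -3.1 to -0.95 and limma adjusted p = 0.0448, where 3.81% of probes passed. The call was lost in 9 of 13 other settings and on leaving out any of 10 of the 14 arrays, while the sign stayed negative throughout. Of the 24 tested pluripotency genes described below, 0 were higher and 4 lower in this test, against 2.39% and 1.42% of all probes.

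Between the kinds of iPSC, Zscan10 separated A-iPSC from the other groups. It was lower in A-iPSC than in Y-iPSC by -2.17 ± 0.38 (SE) on the log2 scale, with limma adjusted p = 0.0047. A-iPSC was at background level and detected on 1 of 2 arrays, so no fold is given against it. In that comparison 10.1% of tested probes passed, 6.04% higher and 4.1% lower. The call was lost without A-iPSC array 19 (-1.83, adjusted p = 0.0635) and when these 4 arrays were fitted alone (-2.17, adjusted p = 0.0829).

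With the transgene, Zscan10 stood above its A-iPSC level by 3.51 ± 0.38 (SE) on the log2 scale, with limma adjusted p = 0.000225. There 15.7% of probes passed, 7.33% higher and 8.37% lower. This call was kept without each array in turn, with differences from 3.13 to 3.86. The A-iPSC arrays enter this comparison and the one before it, so the opposite signs are not independent of each other.

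A-iPSC-ZSCAN10 stood above Y-iPSC by 1.33 ± 0.38 (SE) on the log2 scale, with a 95% interval from 0.5 to 2.16. Its limma adjusted p of 0.127 missed the threshold, in a comparison where 1.34% of probes passed. All 4 arrays kept the group order, with the lower A-iPSC-ZSCAN10 array at 7.96 and the higher Y-iPSC array at 7.57. Without Y-iPSC array 12 the difference was 1.90 and passed (limma adjusted p = 0.0132).

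Every reprogrammed group stayed below ESC. Y-iPSC was lower by -2.72 ± 0.38 (SE) on the log2 scale, 6.6-fold, limma adjusted p = 0.000654, where 14.1% of probes passed (7.1% higher, 6.95% lower). A-iPSC was lower by -4.90 ± 0.38 (SE), limma adjusted p = 5.44e-06, where 34.9% passed (17.2% higher, 17.7% lower). A-iPSC-ZSCAN10 was nearest, at -1.39 ± 0.38 (SE), 2.62-fold, limma adjusted p = 0.0335, where 12.3% passed (6.19% higher, 6.08% lower).

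The last of these calls was lost without A-iPSC-ZSCAN10 array 3 (-1.02, adjusted p = 0.278), without ESC array D (-1.58, adjusted p = 0.0872) and without ESC array H (-1.19, adjusted p = 0.221). Against ESC, Zscan10 was at least 25.1-fold lower in Y-SC (limma adjusted p = 1.64e-06) and at least 24.7-fold lower in A-SC (limma adjusted p = 1.26e-06). In these comparisons 32.6% and 40.9% of probes passed. Sizes at low signal depend on the offset and the background step: over the settings tried, A-iPSC minus Y-iPSC ran from -3.17 to -0.89, A-iPSC minus ESC from -6.06 to -2.87, and A-iPSC-ZSCAN10 minus A-iPSC from 1.76 to 4.63, each with 1 sign throughout. The sizes against A-iPSC and against fibroblasts, both at background, are therefore not set against each other.

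**Figure D2:**
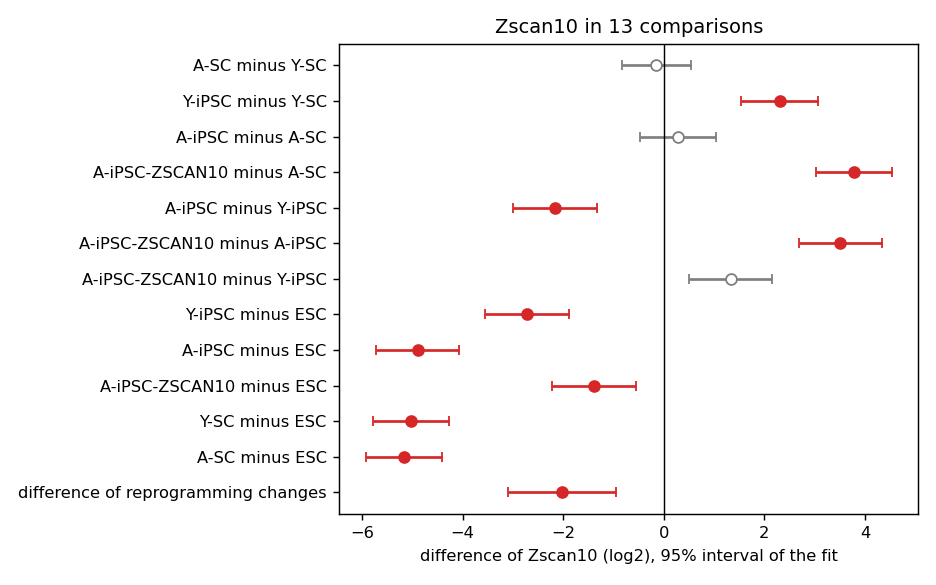
Difference of the Zscan10 probe on the log2 scale (x axis) in 13 comparisons (y axis), with the 95% interval of the fit over 14 arrays. Filled red points passed at adjusted p under 0.05 and open grey points did not. Differences whose fibroblast group was below detection are fitted values, and their lower bounds stand in the text.

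Markers of other cell types moved with these comparisons. Keratinocyte markers (8 on the array) summed to 10400 to 11900 in Y-iPSC and 6890 to 10700 in A-iPSC-ZSCAN10, against 104 to 121 in A-iPSC and 1530 to 2700 in ESC. Krt5 and Trp63 were detected in none of these 4 groups, and Krt14 on neither A-iPSC array. Of 6 tested keratinocyte markers, 5 were lower in A-iPSC than in Y-iPSC (4.1% of all probes were), and 4 were higher in the ZSCAN10 group than in A-iPSC (7.33% of all probes were). Fibroblast markers (10 genes) summed to 3510 to 5900 in A-iPSC-ZSCAN10, 1300 to 2330 in Y-iPSC, 619 to 1030 in A-iPSC and 3040 to 3210 in ESC, against at least 17800 in fibroblasts, where Zscan10 was undetected. Of 9 tested, 3 were higher in the ZSCAN10 group than in A-iPSC, beside the same 7.33%. Macrophage markers (5 genes) stayed between 126 and 356 in iPSC and ESC, with Ptprc and Adgre1 detected on no such array. Of 4 tested, 1 rose in A-iPSC against Y-iPSC, where 6.04% of all probes did, and 0 passed between A-iPSC-ZSCAN10 and A-iPSC. It was Cd14, a receptor for bacterial lipopolysaccharide, higher by 1.94 (limma adjusted p = 0.044) and at least 7.49-fold above ESC, where it was undetected (limma adjusted p = 0.00138). Its difference between A-iPSC-ZSCAN10 and A-iPSC was -1.41 (limma adjusted p = 0.103), and its correlation with Zscan10 over the 8 arrays was -0.91, as a description. Cd14 was detected on all 6 fibroblast arrays too. Its call in A-iPSC against Y-iPSC was kept in only 6 of 14 other settings and in 3 of 14 fits that left out 1 array. The part of other cell types in the Zscan10 values was not tested.

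Zscan10 acts among factors of the embryonic stem cell network, and a list of 30 such genes was followed beside it. Of these, 26 were on the array and 24 were tested. Against Y-iPSC, 5 of the 24 fell in A-iPSC and 0 rose, against 4.1% and 6.04% of all probes, with a median difference of -0.48 against -0.02 over all probes. Against A-iPSC, 5 rose and 1 fell in A-iPSC-ZSCAN10, against 7.33% and 8.37% of all probes, with a median of 0.3 against 0.03 over all probes. Between A-iPSC-ZSCAN10 and Y-iPSC, 0 passed in either direction.

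Gdf3, a ligand of the TGF-beta family found in pluripotent cells, was also lowest of the iPSC groups in A-iPSC, while its Y-iPSC, A-iPSC-ZSCAN10 and ESC arrays overlapped. Its log2 levels were 9.96 and 10.93 in Y-iPSC, 4.88 and 4.67 in A-iPSC, 10.35 and 11.47 on the A-iPSC-ZSCAN10 arrays, and 10.87 and 11.15 in ESC. It was detected on neither A-iPSC array, so it was at least 40.7-fold lower there than in Y-iPSC (limma adjusted p = 7.17e-06) and, with the transgene, at least 56.1-fold above that (limma adjusted p = 3.72e-06). Unlike Zscan10, its difference from ESC did not pass in Y-iPSC (-0.56, adjusted p = 0.352) or A-iPSC-ZSCAN10 (-0.10, adjusted p = 0.912).

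Nr5a2, a nuclear receptor that binds the Oct4 gene, had the highest correlation with Zscan10 of the 24 (Pearson r 0.94 over the 8 iPSC and ESC arrays, as a description). Its log2 levels were 5.93 and 6.69 in Y-iPSC, 4.35 and 4.40 in A-iPSC, 6.33 and 7.29 on the A-iPSC-ZSCAN10 arrays, and 8.28 and 8.75 in ESC. Undetected in A-iPSC, it was at least 2.32-fold lower there than in Y-iPSC (limma adjusted p = 0.00412) and the ZSCAN10 group stood at least 3.27-fold above it (limma adjusted p = 0.000851). Like Zscan10, it stayed below ESC, by -2.20 for Y-iPSC and -1.71 for A-iPSC-ZSCAN10, both past the test.

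Fbxo15, an F-box protein known as a target of Oct4 and Sox2, was at 11.07 and 11.36 in Y-iPSC, 8.48 and 8.21 in A-iPSC, and 10.66 and 11.19 in A-iPSC-ZSCAN10. L1td1, an RNA-binding protein of pluripotent cells, was at 11.77 and 11.96 in Y-iPSC, 10.10 and 9.37 in A-iPSC, and 12.12 and 12.38 in A-iPSC-ZSCAN10. Both fell in A-iPSC against Y-iPSC, by -2.87 and -2.13, and rose in A-iPSC-ZSCAN10 against A-iPSC, by 2.58 and 2.51. With Gdf3 they kept both calls under every setting and without every array, as Nr5a2 did except in A-iPSC minus Y-iPSC when only the arrays compared were fitted.

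Nanog, a central factor of the network, was undetected in A-iPSC and at least 2.59-fold lower there than in Y-iPSC (limma adjusted p = 0.0365), a call lost without any of 7 arrays and kept in 5 of 14 other settings. Its gain in A-iPSC-ZSCAN10 against A-iPSC was 1.29 and missed the threshold (adjusted p = 0.0855). Dppa5a, an RNA-binding protein of early embryos, rose in A-iPSC-ZSCAN10 by 2.99 (adjusted p = 0.0353), and Klf2, a Krüppel-like factor, fell by -1.86 (adjusted p = 0.0162), which was lost without A-iPSC-ZSCAN10 array 7 or A-iPSC array 16. The Dppa5a call was lost without A-iPSC-ZSCAN10 array 7 or either A-iPSC array, among others.

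Much of the network stayed below ESC in all 3 iPSC groups. Against ESC, 16 of 24 genes were lower and 2 higher in Y-iPSC, with a median of -2.62. For A-iPSC 20 were lower and 2 higher, with a median of -3.8. For A-iPSC-ZSCAN10 16 were lower and 1 higher, with a median of -2.7. The medians over all probes were -0.03, -0.02 and 0. The shares of all probes lower and higher were 6.95% and 7.1% for Y-iPSC, 17.7% and 17.2% for A-iPSC, and 6.08% and 6.19% for A-iPSC-ZSCAN10. Tcl1, Dppa3, Esrrb, Lin28a, Utf1, Tdgf1 and Jarid2 were tested only because ESC had them detected on every array. That choice favours a lower value in iPSC, so for these genes the counts and medians are a description.

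Esrrb, an orphan nuclear receptor, and Zfp42, a zinc finger factor also called Rex1, are marks of the naive state. Esrrb was at or near background in every iPSC group, and in A-iPSC, where it was undetected, at least 200-fold below ESC (limma adjusted p = 5.97e-09). Dnmt3l and Dppa3 were undetected in all 3 iPSC groups and in A-iPSC at least 229-fold and at least 66.8-fold below ESC (limma adjusted p = 2.44e-08 and 4.17e-09). The corresponding values of Zfp42 were -6.17 (Y-iPSC), -5.72 (A-iPSC) and -6.02 (with the transgene), with no difference between iPSC groups that passed. Such sizes set ESC against signals at or near the detection limit. Esrrb and Dppa3 were tested only through ESC, as said above.

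**Figure D3:**
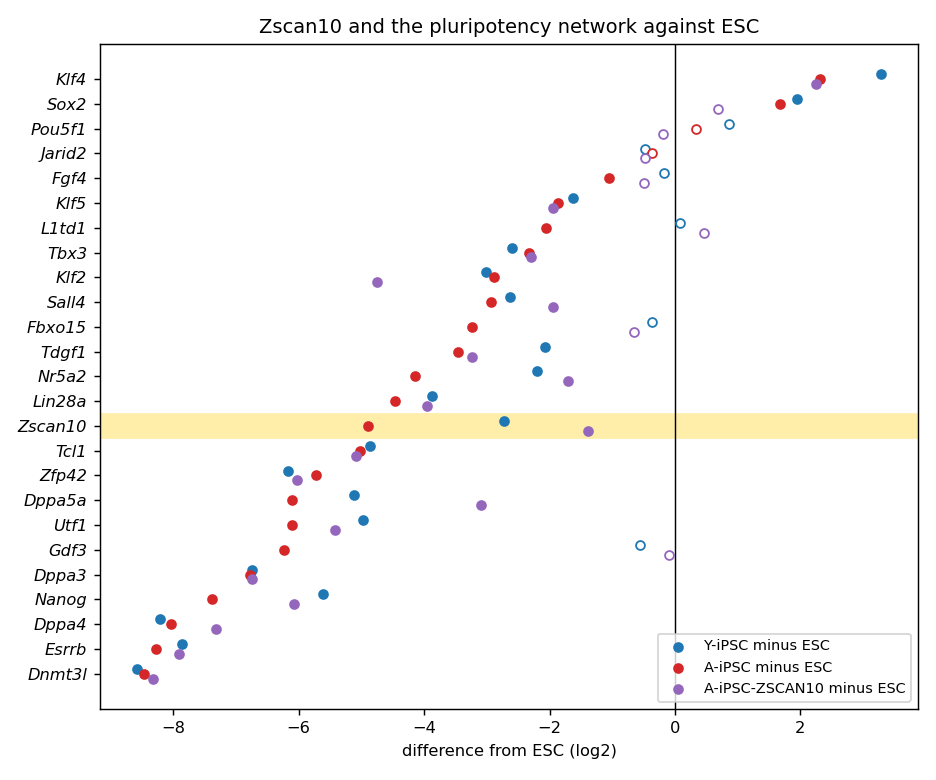
Difference from ESC on the log2 scale (x axis) of Zscan10 and the 24 tested genes of the pluripotency network (y axis), in Y-iPSC (blue), A-iPSC (red) and A-iPSC-ZSCAN10 (purple). Filled points passed at adjusted p under 0.05. Zscan10 is shaded, with its points at -2.72, -4.90 and -1.39, and iPSC values of several genes, such as Esrrb and Dppa3, are at the detection limit.

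The introduced factors were not among the genes that changed between iPSC groups in the comparisons where Zscan10 did. Pou5f1 (Oct4) was at 12.52 and 13.05 in Y-iPSC, 12.33 and 12.18 in A-iPSC, 11.37 and 12.09 on the A-iPSC-ZSCAN10 arrays, and 12.26 and 11.58 in ESC. Against ESC, Sox2 was higher in Y-iPSC (1.94) and A-iPSC (1.68), and Klf4 in all 3 iPSC groups (3.29, 2.32 and 2.25), past the test. Of Pou5f1, Sox2, Klf4 and Myc, 0 of 4 passed in A-iPSC against Y-iPSC or in A-iPSC-ZSCAN10 against A-iPSC. As a description over the 8 arrays of iPSC and ESC, their Pearson correlations with Zscan10 were -0.42, -0.82, -0.67 and -0.59. Whether the probes of these 4 genes also read the viral transcripts was not stated.

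The SCAN domain family shares its pairing domain with ZSCAN10, and 23 of the 32 listed relatives were on the array, of which 17 were tested. In A-iPSC against Y-iPSC 1 of 17 fell and 0 rose, where 4.1% and 6.04% of all probes did. In A-iPSC-ZSCAN10 against A-iPSC 1 rose and 1 fell, where 7.33% and 8.37% of all probes did, so these counts were near the shares over all probes. The family median was 0.11 in the former and -0.14 in the latter. Zfp213, a SCAN and zinc finger factor, was the relative that passed in both, by -2.17 (limma adjusted p = 0.0246) and 2.05 (limma adjusted p = 0.0235). Zkscan17 fell in A-iPSC-ZSCAN10 against A-iPSC by -1.50 (limma adjusted p = 0.0126), a call lost without the same 3 arrays as that of Zfp213, given further on.

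Against ESC, the count of relatives higher and lower was 6 and 3 for A-iPSC, 2 and 1 for Y-iPSC, and 1 and 1 for A-iPSC-ZSCAN10. Of all probes, 17.2% and 17.7%, 7.1% and 6.95%, and 6.19% and 6.08% were higher and lower in the same order. Scand1, a SCAN protein without zinc fingers, was higher in all 3 groups, by 1.70, 1.32 and 1.11 in the same order. Zkscan1 (1.52), Zkscan17 (1.42), Zkscan6 (1.21), Zkscan3 (1.05) and Zfp263 (0.96) were the others higher in A-iPSC, and Zfp213, Zfp24 (-1.38) and Zscan5b the lower ones. Zscan5b, another SCAN and zinc finger gene by name, was detected on both ESC arrays, at 5.62 and 6.71, and on none of the other 12 arrays, A-iPSC-ZSCAN10 included. ESC was at least 2.34-fold above Y-iPSC (limma adjusted p = 0.00197), at least 2.09-fold above A-iPSC (limma adjusted p = 0.00122) and at least 2.23-fold above the ZSCAN10 group (limma adjusted p = 0.0035). Zscan5b was tested only because ESC had it detected on every array, so the direction was set by that choice.

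Of 25 other zinc finger factors known from embryonic stem cells, 22 were on the array and 15 tested. Of those tested, Zfp42, Sall4, Klf2, Klf4 and Klf5 are also in the pluripotency list, so the counts of these lists overlap. In A-iPSC against Y-iPSC 0 rose and 2 fell, and in A-iPSC-ZSCAN10 against A-iPSC 2 rose and 1 fell, with medians of -0.31 and 0.26. Of all probes 6.04% rose and 4.1% fell in the former, and 7.33% rose and 8.37% fell in the latter. The pair that moved in both was Zfp428 and Sall1. The 1 that fell in the latter was Klf2, already counted in the network. Zfp428 stood at 9.41 and 8.77 in Y-iPSC, 7.84 and 6.85 in A-iPSC, 9.02 and 9.75 on the A-iPSC-ZSCAN10 arrays, and 9.86 and 9.69 in ESC, so A-iPSC was below every other array of these groups. Its differences were -1.75 (limma adjusted p = 0.019) and 2.04 (limma adjusted p = 0.00665), the former lost without Y-iPSC array 12 or A-iPSC array 19 and the latter without A-iPSC-ZSCAN10 array 7 or A-iPSC array 19. For Sall1, a developmental repressor, they were -0.97 (limma adjusted p = 0.0466) and 1.05 (limma adjusted p = 0.0259), the first lost without any of 13 arrays and the second without any of 3.

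Besides ZSCAN10, 6 genes were followed as readouts of glutathione, glucose uptake and the RNA exosome. Gss, an enzyme of glutathione synthesis, and Gpx2, a glutathione peroxidase, had signs opposite to Zscan10 in both comparisons with A-iPSC. A-iPSC minus Y-iPSC was 1.47 for Gss and 5.33 for Gpx2, which was detected on 1 of 2 Y-iPSC arrays, both past the test. In A-iPSC-ZSCAN10 against A-iPSC, Gss was at -1.41, past the test, and Gpx2 at least 33.8-fold lower (limma adjusted p = 1.01e-06). The former call of Gss was lost without Y-iPSC array 4 or A-iPSC array 16 or 19, and when only the arrays compared were fitted. The latter call of Gss was lost without any of the 4 arrays compared. Gpx2 was at 10.32 and 9.86 in A-iPSC against 7.76 and 7.87 in ESC, and on neither A-iPSC-ZSCAN10 array was it detected. Against ESC the signs were mixed, with Gpx2 lower in Y-iPSC (-3.06, limma adjusted p = 1.6e-05) and at least 7.01-fold lower in the ZSCAN10 group (limma adjusted p = 2.12e-05), but higher in A-iPSC by 2.27 (limma adjusted p = 8.51e-05). Its correlation with Zscan10 over the 8 arrays was -0.42, as a description. Slc2a3, a glucose transporter, had the signs of Zscan10 in both comparisons with A-iPSC. A-iPSC minus Y-iPSC was -5.90 (limma adjusted p = 0.000112), and A-iPSC-ZSCAN10 minus A-iPSC was 4.46 (limma adjusted p = 0.000645). Unlike Zscan10, its difference from ESC did not pass in Y-iPSC (-0.01, limma adjusted p = 0.992) or A-iPSC-ZSCAN10 (-1.45, limma adjusted p = 0.129).

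Exosc1, Exosc2 and Exosc5, subunits of the RNA exosome, were lower in A-iPSC than in ESC, by -0.98, -1.85 and -1.43, all past the test. Against Y-iPSC none of the 3 passed (-0.48, -1.42 and -0.80). In A-iPSC-ZSCAN10 against A-iPSC, Exosc1 (1.28) and Exosc5 (0.96) rose (both calls lost without A-iPSC-ZSCAN10 array 3 or 7 or A-iPSC array 19, and that of Exosc5 also without A-iPSC array 16), and Exosc2 (1.76, adjusted p = 0.0503) missed the threshold. The list was chosen with results of these arrays in view, so its directions are not independent evidence.

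Zscan10 lies on chromosome 17 in a stretch with other zinc finger genes. The 10 nearest genes on each side that the array represents were followed, in the gene order of RefSeq GRCm38.p6, and 14 of these 20 were tested. In A-iPSC against Y-iPSC 2 fell and 0 rose, and in A-iPSC-ZSCAN10 against A-iPSC 1 rose and 0 fell, with medians of -0.63 and 0.4. Of all probes 4.1% fell in the former and 7.33% rose in the latter, and the count for the latter was near that share. Zfp213, the family relative named above, is the second represented gene on one side of Zscan10. Its log2 levels were 7.17 and 8.72 in Y-iPSC, 6.18 and 5.37 in A-iPSC, 7.68 and 7.97 on the A-iPSC-ZSCAN10 arrays, and 7.63 and 7.60 in ESC.

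A-iPSC was thus the low group for Zfp213 as it was for Zscan10, but fibroblasts expressed Zfp213, at 7.16 to 8.90, and it was detected on all 14 arrays. It was below ESC in A-iPSC (-1.84, limma adjusted p = 0.0194), while Y-iPSC (0.33) and the ZSCAN10 group (0.21) did not pass against ESC. Its fall against Y-iPSC was lost without Y-iPSC array 4 or A-iPSC array 19 and in 4 other settings, and its rise with the transgene without A-iPSC-ZSCAN10 array 3 or 7 or A-iPSC array 19. Zfp758, 6 represented genes away on the same side, was undetected in A-iPSC and at least 1.65-fold lower there than in Y-iPSC (limma adjusted p = 0.0228). That call was lost without Y-iPSC array 4 or A-iPSC array 16 or 19, and was kept in 10 of 14 other settings.

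The genes next to Zscan10 behaved otherwise. Zfp13, the nearest on the side of Zfp213, was detected on neither Y-iPSC array and on both A-iPSC-ZSCAN10 arrays, and passed in none of the comparisons among iPSC groups or with ESC. Bicdl2, the nearest on the other side, was not tested, since no group had it detected on every array. Thoc6, a subunit of the THO complex of mRNA export, came next, with differences of -0.97 and 1.00 in the same pair of comparisons that did not pass, and -1.73 against ESC in A-iPSC that did (limma adjusted p = 0.00282). Hcfc1r1, a regulator of the host cell factor HCFC1, passed in none of them.

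Cldn6, a claudin of tight junctions known from embryonic stem cells and 5 represented genes from Zscan10, was at 11.50 and 11.53 in ESC and at 4.37 to 4.99 in fibroblasts. In iPSC it was at 9.13 on Y-iPSC array 12 and between 4.6 and 5.32 on the other 5 arrays, A-iPSC-ZSCAN10 included. Its differences from ESC were -4.63 for Y-iPSC, -6.55 for A-iPSC and -6.59 for A-iPSC-ZSCAN10, all past the test. Cldn6 was tested only because ESC had it detected on every array, which favours this direction. Of the 14 neighbours, 5 were lower than ESC in A-iPSC: Zfp758, Zfp213, Thoc6, Cldn6 and Kremen2 (-1.24), a receptor of Dickkopf proteins. Cldn6 was the 1 lower for Y-iPSC and for A-iPSC-ZSCAN10, and Flywch2 the 1 higher, for Y-iPSC (1.94). Of all probes, 17.7%, 6.95% and 6.08% were lower for A-iPSC, Y-iPSC and A-iPSC-ZSCAN10, and 7.1% higher for Y-iPSC. The counts for Y-iPSC and A-iPSC-ZSCAN10 were near these shares.

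**Figure D4:**
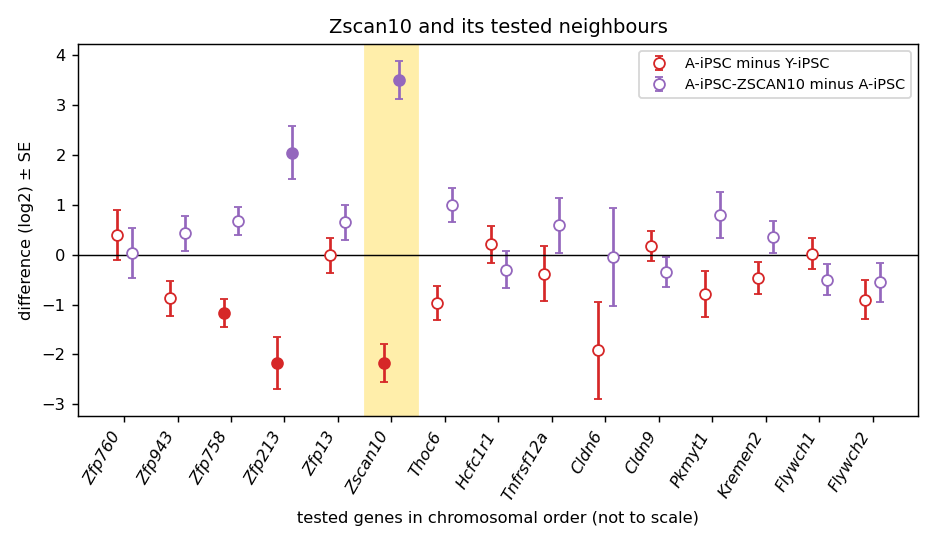
Difference on the log2 scale ± SE (y axis) of Zscan10 (shaded) and its 14 tested neighbours, in gene order and not to scale (x axis), for A-iPSC minus Y-iPSC (red) and A-iPSC-ZSCAN10 minus A-iPSC (purple). Filled points passed at adjusted p under 0.05: Zfp758 and Zfp213 beside Zscan10 in the first comparison, and Zfp213 beside Zscan10 in the second.

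The genes with the pattern most like Zscan10 were taken by Pearson correlation over the 8 arrays of iPSC and ESC, among probes whose group means spanned at least 1 log2 unit. The 8 highest were Psmc4 (0.994), Dpp7 (0.994), Ttc27 (0.994), Dhx29 (0.994), Kbtbd4 (0.992), Rcc1 (0.992), Cenpt (0.992) and Ncl (0.990). Psmc4 is an ATPase of the proteasome, Dpp7 a lysosomal peptidase, Dhx29 a helicase of translation initiation, Rcc1 the exchange factor of Ran, Cenpt a centromere protein and Ncl nucleolin. Psmc4, for example, ran from 10.97 and 10.79 in A-iPSC over 11.72 and 11.26 in Y-iPSC, then 12 and 12.08 with the transgene, to 12.40 and 12.50 in ESC, a narrower span than that of Zscan10. All 8 were detected on every fibroblast array, where Zscan10 was not.

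The 4 most opposite were Zdhhc14 (-0.997), a protein palmitoyltransferase, Avpi1 (-0.993), Stradb (-0.992), a pseudokinase, and Catsper2 (-0.991), a subunit of the sperm calcium channel. Zdhhc14 was at 8.87 and 9.30 in A-iPSC and at 5.38 and 5.30 in ESC. High likeness was common: 715 of 7271 probes considered (9.83%) had a correlation of 0.9 or more with Zscan10, and 516 (7.1%) of -0.9 or less. The points come from 4 groups of 2 arrays and share the contrast of ESC with iPSC, so the values are descriptions. Over the 6 iPSC arrays alone, the correlations were 0.981 to 0.995 for the 8 genes and -0.997 to -0.982 for the 4 opposite ones. These 6 arrays also entered the choice of the genes, so the values are no separate check. Of the 8 named, 2 to 6 were named again when 1 of the 8 arrays was left out.

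Among the listed genes, the correlation was 0.94 for Nr5a2 and Zfp428, 0.93 for Exosc5, Ctcf and Thoc6, 0.92 for Dppa5a and Sall1, 0.85 for Gdf3, 0.81 for Nanog and 0.64 for Zfp213. Gss (-0.87) and Zkscan1 (-0.93), a SCAN family member, ran opposite. The 8 named first were chosen as the highest of all probes considered, so that these listed genes lie below them follows from the choice.

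**Figure D5:**
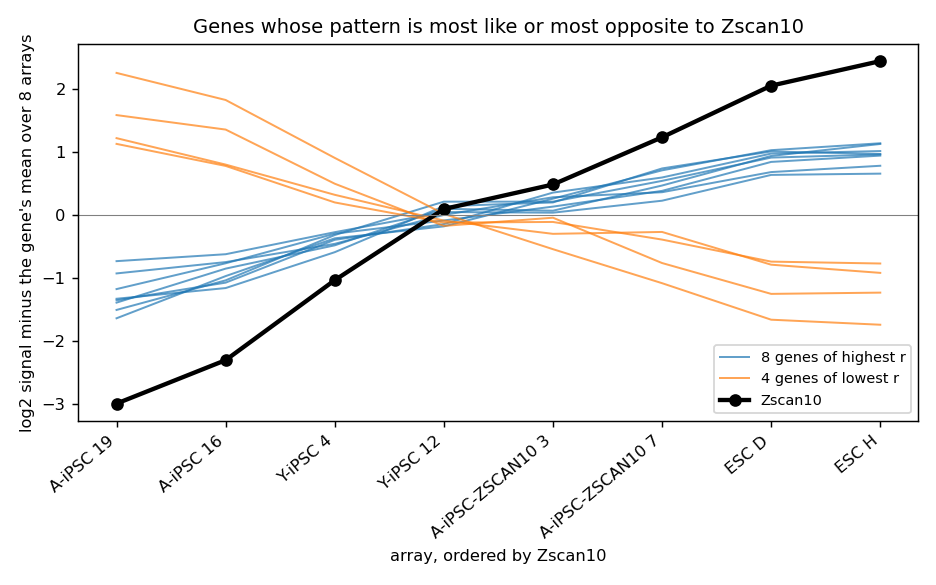
Log2 signal minus each gene's own mean over 8 arrays (y axis), on the iPSC and ESC arrays ordered by Zscan10 (x axis). Zscan10 is black, the 8 genes of highest correlation blue and the 4 of lowest correlation orange; the genes were chosen for this pattern, and all span less than Zscan10.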

How the data were processed

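RNA was measured on 14 arrays in 6 groups taken from the labels. The deposited intensity values were non-normalized probe signals with a detection p-value per probe and array, per the file headers. A second table of intensity values processed by the authors, per the submitters' processing notes with lumi (version and steps not given in the sources used here), had array medians of 132.97 to 133.02 and served as an alternative. Of 25697 probes, 23978 had 1 gene symbol, 0 several and 1719 none in the platform annotation; 23962 were matched to a current symbol by gene ID. All columns were assigned to samples (0 were not).

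Signals were background-corrected with detection p-values, quantile normalized and put on log2 with an offset of 16 (neqc in limma 3.58.1, R 4.3.3). A probe was tested (14742 were) if 1 or more groups had it detected, at p under 0.05, on all their arrays. One mean per group was fitted over 14 arrays with lmFit and eBayes, and p-values were adjusted by Benjamini-Hochberg within each of 13 contrasts, at a threshold of 0.05. The Zscan10 probe entered through Y-iPSC, A-iPSC-ZSCAN10 and ESC. A group undetected on all its arrays gives a bound, the other group against the dimmest detected probe per array. For genes with several probes, the tested probe of highest mean was taken. The fit was tested on simulated data. The number of arrays limits the precision. On 4 fibroblast arrays signals carry 1 decimal, a number format tried as a block.

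Named were Zscan10, the 8 genes most and 4 least correlated with it, neighbours that passed or lay within 3 genes, up to 6 passing members per list and comparison, and 13 genes always named where listed. Correlations of further listed genes were chosen after their values were seen. Members and lists were chosen with earlier results of these data known. The probe's own sequence was not used here.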

Additional observations from a re-analysis of the deposited data

Results flagged for a closer look

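The difference between the changes on reprogramming, aged minus young, was -2.03 for Zscan10 on the log2 scale (limma adjusted p = 0.0448, 95% interval from -3.1 to -0.95). It drew a closer look because the difference between the donors' changes was itself tested and passed. Zscan10 was detected on no fibroblast array, so the value rests on the Y-iPSC and A-iPSC arrays set against background on both sides. In the 9 other settings where it missed the threshold the adjusted p ran up to 0.199. No group could be examined for outlying arrays, since each held 2 or 3.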

How the results depend on the processing

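Among the settings tried beside leaving out arrays, Y-iPSC, A-iPSC and the fibroblast groups against ESC, Y-iPSC and A-iPSC-ZSCAN10 against their fibroblasts, and A-iPSC-ZSCAN10 against A-iPSC kept their direction and call. The difference of reprogramming changes missed the threshold with the deposited value table (-0.85, adjusted p = 0.147), no background correction (-0.83), an offset of 50 (-1.32) or 1 (-2.79), no filter (-2.03), only the compared arrays (-1.99), array weights (-2.03), a robust trended prior (-2.03) and only the 10 arrays of the other number format (-2.18, adjusted p = 0.199). A-iPSC-ZSCAN10 against ESC missed it with an offset of 1 (-1.43), median scaling (-1.23), no filter (-1.39), the 8 iPSC and ESC arrays (-1.38) and the 10 arrays (-1.38). A-iPSC against Y-iPSC missed it with only the compared arrays (-2.17). The subsets of 8 and of 10 arrays were chosen after seeing the data.

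Leaving out 1 array at a time, a lone array being assumed to vary like the other groups, gave -2.73 to -1.60 for A-iPSC against Y-iPSC, 0.77 to 1.90 for A-iPSC-ZSCAN10 against Y-iPSC, -1.76 to -1.02 for A-iPSC-ZSCAN10 against ESC, and -2.59 to -1.45 for the difference of reprogramming changes. A-iPSC against A-SC ran from -0.07 to 0.63, the negative value without A-iPSC array 16. Of 183 calls of named genes in 5 comparisons, 97 were kept without every array and 141 in every other setting, and 0 reversed. Of the 8 genes most like Zscan10, 0 were named again with Spearman's rho or with all 14 arrays. Over the 8 arrays of iPSC and ESC, Psmc4, Dpp7, Dhx29, Cenpt and Ncl had a rho of 1, and Ttc27, Kbtbd4 and Rcc1 of 0.98. For the genes at 1, ties at this highest possible value set which were named by rho, so their absence there is no loss of likeness. Those at 0.98 lay below the tied value. Over all 14 arrays, with fibroblasts included, the Pearson correlations of the 8 genes ran from 0.0422 (Dpp7) to 0.911 (Ncl).

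Median scaling moved the median of all probes most in A-iPSC-ZSCAN10 minus A-iPSC, from 0.03 to 0.16. There the calls split into 1515 higher and 963 lower against 1080 and 1234. For A-iPSC-ZSCAN10 minus A-SC they split into 2331 and 1080 against 1654 and 1456. For A-SC minus Y-SC, 28 higher and 33 lower became 22 and 14 with the deposited table, 23 and 14 without background correction, 25 and 18 with an offset of 50 and 27 and 19 with cyclic loess. No paired analysis was possible because no 2 groups compared share at least 2 array codes. With 2 arrays in 4 of the groups and 1 probe near background in 3, changes in A-iPSC and fibroblasts below the detection limit cannot be seen.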
